A study of Homo sapiens with 2 samples.

Results

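E2F1 peaks were called at the transcription start site (TSS) of all 5 genes described here: RB1, RBL1 and RBL2, which encode the retinoblastoma (RB) family of pocket proteins, TFDP1, which encodes the E2F dimer partner DP1, and MYBL2, which encodes B-MYB. The genes were fixed by name, but they were chosen with earlier results of these data known. Each was taken to carry a peak where a peak of the deposited list overlapped the 2 kb on either side of its hg19 TSS. This gave 6 peaks of 28734 in the list, 1 at each of 4 genes and 2 at RBL2. Of windows of the same width laid end to end along chromosomes 1 to 22 and X, 4% overlapped a peak. Among those that did, 11.7% had a peak of the top 10%. The share over all start sites was not analysed here, so the count cannot be read as particular to these genes. Against all peaks the scores were far from alike: RBL1, MYBL2 and TFDP1 lay among the top 5%, RB1 just within the top 10%, and RBL2 outside the top 25%.

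Binding was measured by chromatin immunoprecipitation sequencing (ChIP-seq) in LNCaP-abl, an androgen-independent line derived from LNCaP prostate cancer cells, and 1 library gave the list. Cells at passages 61 to 64 were grown with 10% charcoal-stripped serum and spent 3 days without androgen before collection, and E2F1 was precipitated with a pair of antibodies. The series also holds an input of the same cells without antibody, and no signal of it was analysed here. The only group used was therefore a single library of a single line under 1 condition, so no value has a replicate, no difference between genes could be tested, and read depth is unknown. Cell identity could not be checked, since a peak list of 1 factor measures no marker.

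Pocket proteins bind E2F factors and hold their target genes silent until cyclin-dependent kinases phosphorylate them. The protein of RB1 binds activating E2Fs such as E2F1, whereas those of RBL1 and RBL2 bind mainly E2F4 and E2F5 and, with the MuvB core, form the DREAM complex that represses cell cycle genes. DP1 is the partner with which most E2Fs bind DNA. B-MYB takes over the MuvB core in proliferating cells and activates genes of mitosis. RBL1 and MYBL2 are textbook targets of E2F, and the genes thus encode regulators, a partner and an output of the same switch.

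Promoter sequences from RefSeq (GRCh38.p14) are shown for the 4 genes whose table entry starts at or near the annotated gene start, because they show how differently the E2F recognition letters are spread over genes that all carry a peak. Each line gives the 250 bases before the start site, 5′ to 3′ on the gene's strand. The E2F consensus was searched on both strands as 4 words of 8 letters, TTTCCCGC, TTTGGCGC, TTTCGCGC and TTTGCCGC. Capitals mark the last 6 letters of any of these words, here called the core, on either strand. These coordinates are of another build than the peaks and were not set against them.
RBL1, chr20:37095998-37096247, minus strand: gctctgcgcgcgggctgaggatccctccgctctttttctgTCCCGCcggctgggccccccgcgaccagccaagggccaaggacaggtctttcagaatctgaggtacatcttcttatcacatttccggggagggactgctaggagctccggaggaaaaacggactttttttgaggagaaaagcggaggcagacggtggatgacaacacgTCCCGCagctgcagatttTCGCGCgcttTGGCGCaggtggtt
MYBL2, chr20:43666864-43667113, plus strand: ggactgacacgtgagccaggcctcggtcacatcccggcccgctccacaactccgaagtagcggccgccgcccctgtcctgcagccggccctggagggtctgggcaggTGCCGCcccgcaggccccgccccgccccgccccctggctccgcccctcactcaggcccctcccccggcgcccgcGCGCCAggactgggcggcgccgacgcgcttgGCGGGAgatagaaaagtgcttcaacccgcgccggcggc
TFDP1, chr13:113584503-113584752, plus strand: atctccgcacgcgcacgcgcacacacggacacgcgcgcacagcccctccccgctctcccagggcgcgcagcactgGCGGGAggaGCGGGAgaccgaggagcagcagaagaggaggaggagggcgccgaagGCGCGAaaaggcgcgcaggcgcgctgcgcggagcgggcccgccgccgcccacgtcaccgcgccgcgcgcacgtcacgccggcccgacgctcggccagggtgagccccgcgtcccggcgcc
RBL2, chr16:53434221-53434470, plus strand: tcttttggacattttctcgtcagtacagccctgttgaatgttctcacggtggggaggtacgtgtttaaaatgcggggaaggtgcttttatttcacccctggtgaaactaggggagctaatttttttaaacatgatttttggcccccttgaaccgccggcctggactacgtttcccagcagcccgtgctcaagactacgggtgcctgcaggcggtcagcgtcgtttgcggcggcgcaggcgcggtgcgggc

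The RBL1 promoter held the fullest E2F letters. Of the 8-letter words it held TTTCGCGC from -26 to -19 and TTTGGCGC from -16 to -9 before the start site. They contain the last 2 capital stretches of its line. At least 1 such word was found in 3.31% of the 35116 promoters in the table and at least 2 in 0.145%. Among promoters of at least 60% G and C, to which RBL1, TFDP1 and MYBL2 belong, 4.88% held at least 1. TFDP1 held 1 word, TTTCGCGC, on the opposite strand from -120 to -113. MYBL2 and the RBL2 start shown held none of the 8-letter words.

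In a search for the 6-letter core, added after the 8-letter result had been seen, RBL1 had 5 matches in the 300 bases of its entry, TFDP1 and MYBL2 had 4 each, and RBL2 had 0 at both of its listed starts. The 5 matches of RBL1 include the cores of its pair of longer words. A core was present in 46.6% of all promoters, and 4 or more in 5.29%. The core is made mostly of G and C. G and C made up 79.7% of the TFDP1 entry, 75.3% of MYBL2, 61.3% of RBL1 and 59.0% of the first RBL2 entry, against a median of 58.7% over all entries. Among promoters of at least 60% G and C, 76.2% held a core and 10.9% held 4 or more. That class reaches down to 60%, and TFDP1 and MYBL2 lie well above this limit. The shares among promoters of their own G and C content were not analysed here. The matches describe letters in a window and are not binding sites. Only exact words were searched, so a lack of matches does not exclude a site with other letters inside the window. It says nothing of E2F1 beyond that window.

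The promoters also differed in other short elements fixed for the search. MYBL2 held 7 GC boxes (GGGCGG on either strand), the element bound by SP1-type factors, of which 3 overlapped a neighbouring one in a row from -127 to -112. Another, from -141 to -136, shared letters with the E2F core from -143 to -138. TFDP1 held 2 GC boxes and the first RBL2 start 2, RBL1 held 0, and 44.95% of all promoters held at least 1. The cell cycle homology region letters (TTTGAA or TTCGAA), an element through which MuvB complexes act, occurred once at the first RBL2 start, after the start site from 24 to 29, and in 16.4% of all promoters. A partial cyclic AMP response element (TGACG) occurred 2 times at TFDP1, once at MYBL2 and once at the first RBL2 start, and in 24.6% of promoters. A CCAAT box (CCAAT), found in 34.6%, was present only at the second RBL2 start among these entries. The RB1 entry of the table belongs to a start 172699 bp inside the gene, so it does not represent the start used here, and its sequence is not described.

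All 5 genes had a peak within 2 kb of the TSS, and in all 5 a peak covered the TSS base itself. Over windows of the same width tiled along chromosomes 1 to 22 and X, 4% (29424 of 735061) overlapped a peak, and 0.468% overlapped a peak of the top 10%, against 4 of the 5 genes. Of the tiled windows with any peak, 11.7% had one in the top 10%. Tiled windows mostly lie away from start sites. The share of all start sites that carry a peak was not analysed here for want of an hg19 annotation, so these counts cannot be read as particular to the 5 genes. Window widths from 500 bp to 10 kb on either side left the count at 5, which was fixed in advance because a peak covered each TSS base.

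**Figure D1:**
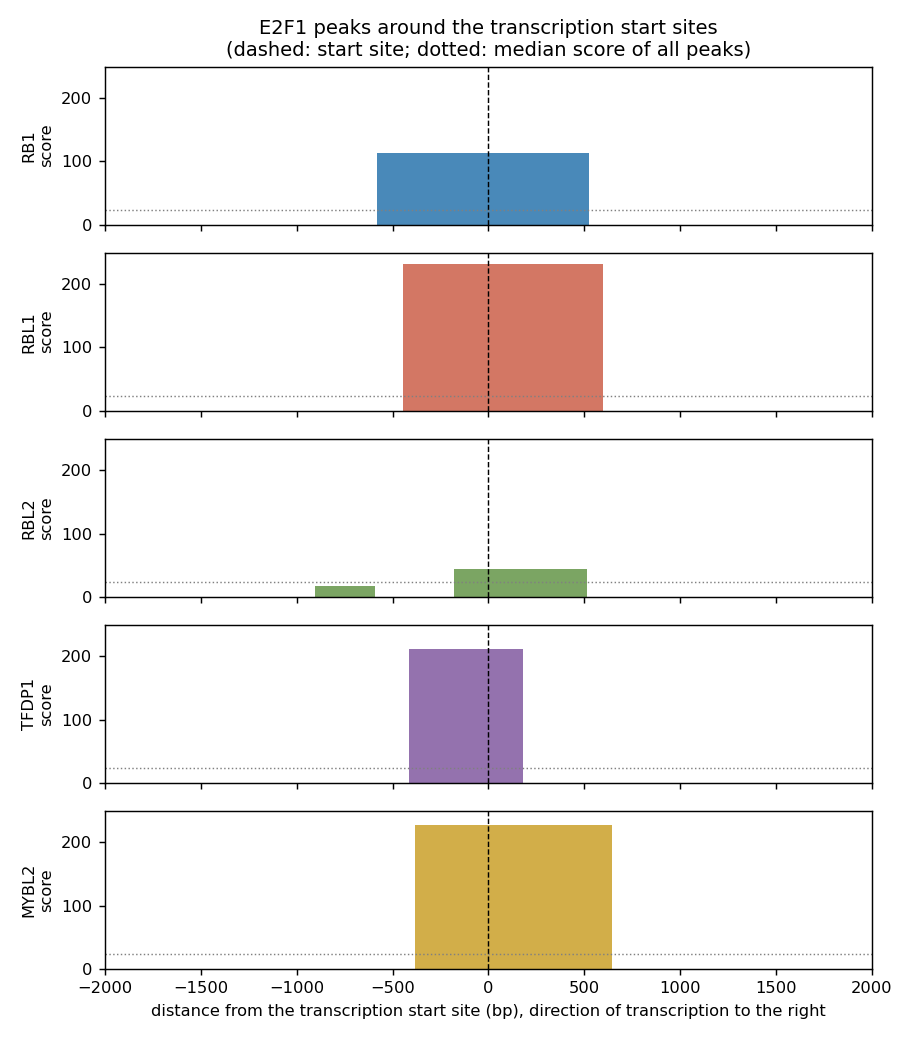
E2F1 peaks within 2 kb of each TSS. Each bar spans a peak from its start to its end (x axis, distance from the TSS in bp, transcription to the right) with the authors' score as its height; the dashed line is the TSS and the dotted line the median score of all peaks, 23.5. A peak covers the TSS in each panel, and RBL2 alone has a second, separate peak upstream.

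Among the pocket protein genes, RBL1 had the strongest E2F1 peak and RBL2 the weakest. The RBL1 peak on chromosome 20 from 35723799 to 35724846 (hg19, 1-based) scored 232. The score is the authors' value for each peak, on a scale that no source at hand names, so only ranks within the list are read from it. The RBL1 peak lay at the 99.1st percentile of all peaks, with 272 peaks above it, and was the 7th highest of 835 on its chromosome. The RB1 peak on chromosome 13 from 48877301 to 48878409 scored 114, at the 90.8th percentile with 2654 peaks above it. That is close to the limit of the top 10%, a score of 110. The RBL2 peak at the TSS, on chromosome 16 from 53468173 to 53468867, scored 43.6, at the 65.7th percentile, and 9843 peaks were above it. It was thus above the median of all peaks, 23.5, but below the limit of the top 25%, 60.7.

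The second RBL2 peak lay upstream, from 53467447 to 53467759, and did not reach the TSS. Its score was 16.2, at the 39.7th percentile and below the median of the list. The gap between the RBL2 peaks was 413 bp. Of the tiled windows that held a peak, 8.98% held more than 1. The list gives no signal between them, so it does not show whether binding was continuous across the gap.

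The genes of DP1 and B-MYB carried peaks that ranked close to that of RBL1. The TFDP1 peak on chromosome 13 from 114238644 to 114239237 scored 212, at the 98.5th percentile with 427 peaks above it, and was the 9th highest of the 479 on chromosome 13. RB1 on the same chromosome was 42nd. The MYBL2 peak on chromosome 20 from 42295276 to 42296303 scored 228, at the 98.98th percentile with 294 peaks above it, and was the 8th highest on that chromosome, next below RBL1. In descending order of score the genes were therefore RBL1, MYBL2, TFDP1, RB1 and RBL2. Without a replicate, the order of the first 3 has no error to be held against. None of the 6 scores was held by any other peak.

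**Figure D2:**
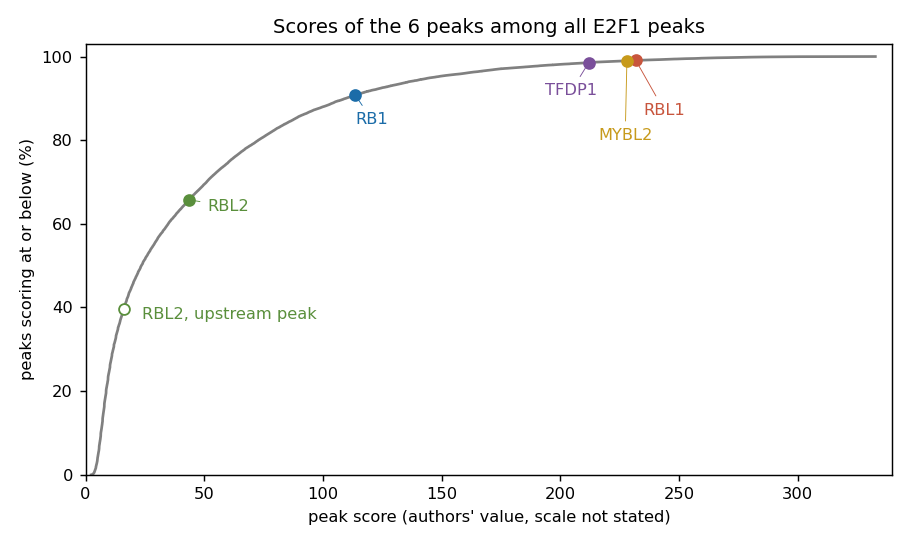
Scores of the 6 peaks on the cumulative distribution of all 28734 peaks (x axis, authors' score; y axis, percent of peaks scoring at or below). Filled points are the highest peak of each gene and the open point is the upstream RBL2 peak; RBL1, MYBL2 and TFDP1 sit together near the top of the curve, RB1 at 90.8% and RBL2 at 65.7%.

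The peaks at the TSS were centred near it. By the strand given in RefSeq, with upstream counted as negative, the midpoint lay at -28.0 bp for RB1 and at -115.5 bp for TFDP1. It lay downstream for RBL1, MYBL2 and RBL2, at 76.5, 130.5 and 169 bp. The RB1 peak was the most even about the TSS, reaching 582 bp upstream and 526 bp downstream. The RBL2 peak reached 178 bp upstream and 516 bp downstream, and MYBL2 383 and 644 bp. TFDP1 was the other way round, at 412 bp upstream and 181 bp downstream, and RBL1 reached 447 bp upstream and 600 bp downstream. The deposited list has no summits, so the place of highest signal within each peak is not known.

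Width set the genes apart in another order than score. The RB1 peak was the widest, at 1109 bp, followed by RBL1 at 1048 bp and MYBL2 at 1028 bp, against a median of 418 bp over all peaks. These lay at the 96.1st, 94.6th and 94.1st percentile of width. The RBL2 peak at the TSS was 695 bp wide and the TFDP1 peak 594 bp, at the 76.2nd and 68.1st percentile. Score and width rise together over the list, so each peak was also set beside those within 500 ranks of its score on either side. TFDP1 was narrow for its score, at the 10.3rd percentile of width among 928 such peaks with a median of 787 bp. RB1 was wide for its score, at the 90.4th percentile, and RBL1 and MYBL2 were at the 88.0th and 87.0th. The sets of RBL1 and MYBL2 held 773 and 795 peaks. For these 2 genes and TFDP1 fewer than 500 peaks scored higher, so their sets lean towards lower-scoring peaks, which tend to be narrower.

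Read the other way, a wide peak can score low for its width. Among peaks of the same width class (10 classes of equal number), RB1 was at the 76.3rd percentile of score and RBL2 at the 30.0th, below most peaks of its width, while RBL1, TFDP1 and MYBL2 stayed between 98.1% and 98.3%. The position of RBL2 above the middle of the list thus turned when only peaks of like width were ranked.

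**Figure D3:**
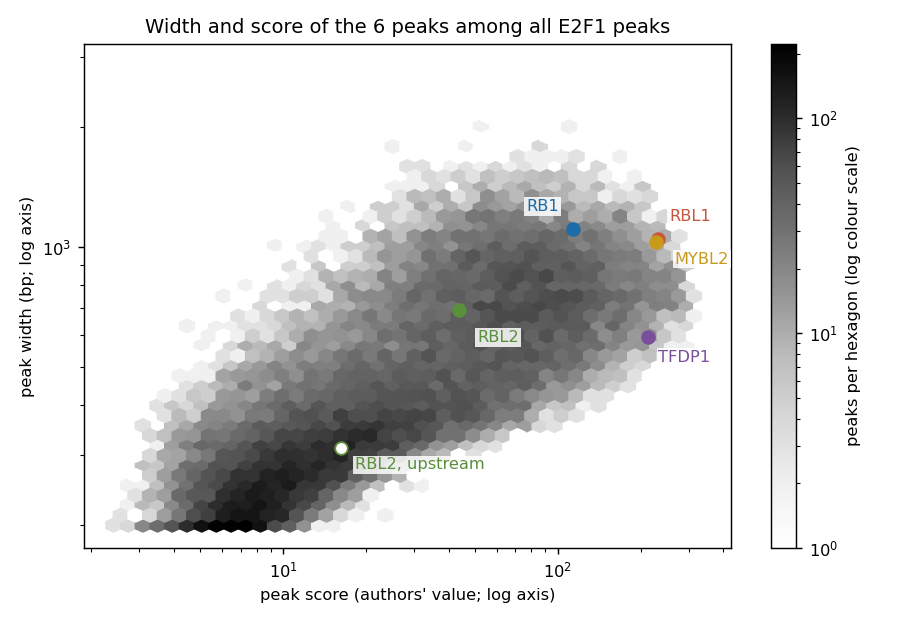
Width (y axis, bp, log axis) against the authors' score (x axis, log axis) for all peaks, with darker hexagons holding more peaks. Points mark the 6 peaks (open: the upstream RBL2 peak); TFDP1, 594 bp, sits at the narrow edge for its score, and RB1, 1109 bp, towards the wide edge.

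Beyond the 2 kb window the genes differed in how far the next peak was. For RB1 and RBL1 it was farthest. The next peak lay 70.2 kb upstream of the RB1 TSS with a score of 54.1, and 82.2 kb upstream of the RBL1 TSS with a score of 9.61, beside a stronger one at 82.8 kb with a score of 81.9. Apart from the peaks at the TSS, none was called within 100 kb downstream of either gene's start. The edge of the nearest other peak was 69655 bp from the RB1 peak and 81715 bp from the RBL1 peak, farther than for 84.9% and 87.7% of all peaks, whose median was 16092.5 bp. Counts of peaks around the genes, here and below, were set beside tiled windows of the chromosome. Those need not hold any peak, whereas a window around these genes always holds the peak at the TSS, so the backgrounds are unlike. Within 100 kb on either side, the peak at the TSS included, RB1 had 2 peaks, against a median of 0 (quartiles 0 and 2) in tiled windows of that width on chromosome 13. RBL1 had 4, against a median of 2 (quartiles 0 and 4) on chromosome 20. Within 1 Mb on either side, RB1 had 11 peaks, against a median of 7 (quartiles 3 and 14.5) in 47 tiled windows of that width on chromosome 13. Those 11 peaks had a median score of 80.2, above the 23.5 of the whole list, and 4 of them scored higher than the RB1 peak. RBL1 had 42 peaks within 1 Mb, above the upper quartile of tiled windows on chromosome 20 (median 21, quartiles 15 and 37.5). Their median score was 21.6, and the RBL1 peak ranked 3rd among them.

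MYBL2 had a second strong peak just upstream. It lay 9.12 kb from the TSS at its near edge, on chromosome 20 from 42285921 to 42286540, was 620 bp wide and scored 220, at the 98.8th percentile with 339 peaks above it. The peaks at the TSS and upstream were the 8th and 11th highest of 835 on the chromosome, and 8735 bp separated them. Pairs of this kind were uncommon: of the 1437 peaks in the top 5%, 2.37% had another top 5% peak within 10 kb. This pair was picked out after its values were seen. In RefSeq gene order the protein-coding genes on either side of MYBL2 are IFT52 and GTSF1L, and in which gene, if any, the upstream peak lies was not analysed here. The MYBL2 peak ranked first of 25 within 1 Mb, and the nearest higher-scoring peak was 2.14 Mb away, farther than for 66.4% of the 1414 top 5% peaks that have a higher one on their chromosome. By the same measure RBL1 and TFDP1 were nearer to a higher peak than most: 0.321 Mb for RBL1, farther than for 30.3% of those peaks, and 0.0625 Mb for TFDP1, farther than for 9.19%. This distance depends in part on a peak's own score, because a higher-scoring peak has fewer peaks above it. The set compared reaches down to the limit of the top 5%, so these shares are not separate from the scores. The 25 peaks within 1 Mb of MYBL2 lay within the quartiles of tiled windows on chromosome 20.

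The TFDP1 peak was not the strongest of its surroundings. A peak 62.7 kb downstream of the TSS, from 114301760 to 114302453, scored 265, at the 99.7th percentile, and was the 4th highest on chromosome 13. Between it and the TSS lay a peak of score 5.33, among the lowest 4.84% of the list, and another weak peak, of score 12.8, lay 17.5 kb upstream. TFDP1 ranked second of 39 peaks within 1 Mb, where tiled windows of that width on chromosome 13 held a median of 7. RBL2 had a weak peak 9.81 kb downstream with a score of 8.42, and 2 peaks farther out, 60.5 kb upstream and 68.1 kb downstream, that scored 25.2 and 63.1. It ranked 8th of 27 peaks within 1 Mb, where tiled windows on chromosome 16 held a median of 21 (quartiles 4 and 39).

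**Figure D4:**
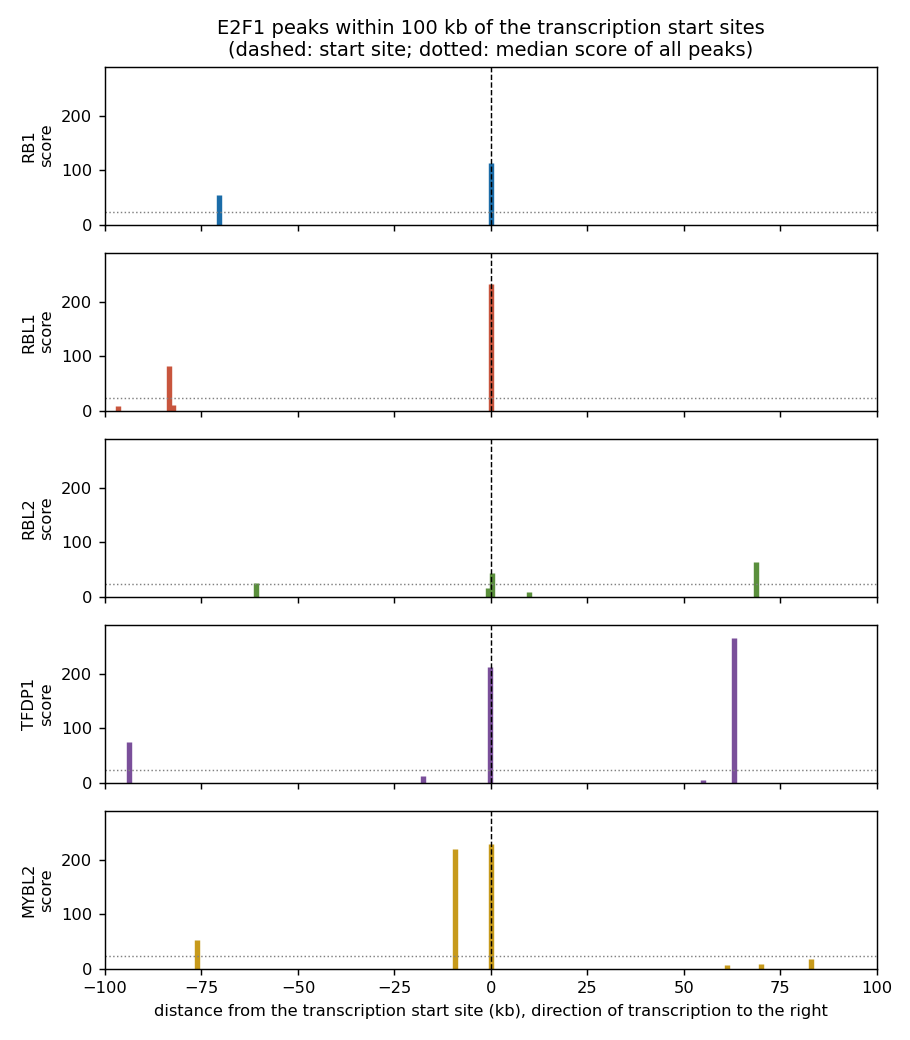
E2F1 peaks within 100 kb of each TSS (x axis, distance in kb, transcription to the right; y axis, authors' score), drawn as a line at the midpoint of each peak. The RB1 and RBL1 panels are empty downstream of the TSS, the MYBL2 panel shows a pair of peaks of 228 and 220, and the TFDP1 panel shows a stronger peak, 265, farther downstream.

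Other genes of the same pathway could be described only by promoter sequence, since their hg19 positions were not used here. Of 23 listed genes of the RB and DREAM pathway, 18 had a promoter in the RefSeq table. An 8-letter E2F word was found at 4 of them (22.2%), E2F1, E2F2 and E2F3, which encode the activating E2Fs, and LIN52, which encodes a subunit of MuvB. Counted by promoter, 4 of their 28 entries (14.3%) held a word, against 3.31% of all entries and 4.88% of those with at least 60% G and C. With the last 7 letters of the words, 9 of the 28 (32.1%) held a match, against 12.97% and 21.3%. With the 6-letter core, 22 of the 28 (78.6%) did, against 46.6% and 76.2%, so there the share was near that of promoters rich in G and C. Of RBL1, RBL2, TFDP1 and MYBL2, RBL1 and TFDP1 held an 8-letter word. The shares over the list are a description of sequence and say nothing of E2F1 peaks at those genes.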

How the data were processed

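The data are 1 deposited peak list of the E2F1 library. The submitters' processing notes name hg19, MACS2 2.0.9, Bowtie and CASAVA 1.6.0 without roles. Settings, the peak threshold and any use of the input are not stated in the sources used. The score in the deposited list was made by the authors, no header names its scale, and it was used only for ranks. A score depends on signal and on the background it was tested against. Starts were read as 0-based and are printed 1-based.

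Overlaps, percentiles (share of peaks at or below), distances and tiled windows came from scripts in Python 3.11.15 (numpy 2.4.6, pandas 2.3.3, scipy 1.17.1), and plots from matplotlib 3.10.9. The overlap, tiling and motif searches were tested on simulated data. Tiling covered the stretch between the outermost peaks of each of chromosomes 1 to 22 and X. TSS positions came with the choice of genes. All 5 members are named, and of the pathway list those with an 8-letter E2F word. Promoters (250 bases before to 50 after a start) were RefSeq's, of GRCh38.p14, used for sequence, strand and gene order only. For RBL2 the first of 2 entries is printed. The members and lists were chosen with earlier results of these data known. Alternatives were other windows, overlap rules, score limits, ranking sets and motif lengths.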

Additional observations from a re-analysis of the deposited data

How the results depend on the processing

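Of 37 alternatives, 24 left the value within 1.5 times a count or within the exact 95% binomial interval of a share. The other 13 moved it. The tally does not measure robustness, since many of the 24 had little or no room to move. For every gene the peak nearest the TSS was also the highest-scoring one. Ranking among the 28725 nuclear peaks, or by the share strictly below, hardly altered the comparison. The interval treats the full list as a random sample, and a count of 4 passes as the same as 5. The count of 5 genes with a peak stayed at 5 under 7 alternatives and was 4 among the top 25% and the top 10% of peaks, RBL2 being the gene lost. The other window widths among the 7 could not lower it, since a peak covered each TSS base. Ranked on their own chromosome, the percentiles were 91.4 for RB1, 99.3 for RBL1, 61.0 for RBL2, 98.3 for TFDP1 and 99.2 for MYBL2. Ranked among peaks of like width, they were 76.3 for RB1, 98.3 for RBL1, 30.0 for RBL2, 98.3 for TFDP1 and 98.1 for MYBL2. The share of tiled windows with a peak was 4.10% on chromosomes 13, 16 and 20. An E2F word was found in 12.97% of promoters with 7 letters and in 46.6% with 6 letters, the latter chosen after seeing the data. Shorter words match more often by construction. No paired analysis was possible because a single library was peak-called. Limits set by depth cannot be given without read counts.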
